A study of Homo sapiens with 34 samples.

Results

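H1 human ESCs, an established line of embryonic stem cells, that carried a lentiviral shRNA against ZNF503 were compared with WT cells at day 6 of directed differentiation along the cardiac lineage, the stage at which the culture is named cardiac progenitor. The 4 libraries were taken by their labels, 2 of ZNF503 shRNA cells and 2 of WT cells, out of 34 in the series, and each gene was read from the RefSeq row with the largest total. WT denotes H1 cells infected either with an empty vector or with an shRNA that targets GFP, and the labels do not say which of them a library came from. Both groups received CHIR99021, a GSK3β inhibitor that starts WNT signaling, for the first 24 hours, and IWP2, an inhibitor of WNT secretion, on days 2 to 5, while insulin was added only at day 7, after these samples. The ZNF503 shRNA cells were a single line selected with puromycin, the one with the best knockdown by real-time PCR among the GIPZ vectors tested. NKX2-5 shRNA and ZEB2 shRNA cells of day 6, and WT and ZNF503 shRNA cells of day 2, each with 2 libraries of the same H1 line and protocol, served for the further comparisons.

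ZNF503 belongs to the NET family of zinc finger proteins, which act as transcriptional repressors together with TLE (Groucho) corepressors. In the heart field, NKX2-5, GATA4, TBX5, ISL1, HAND2 and MEF2C bind one another's enhancers and together switch on the genes of the sarcomere, the contractile unit of muscle, and of calcium handling. Mesoderm that forms the heart arises next to endoderm, which produces secreted liver and yolk sac proteins under HNF4A, SOX17 and the FOXA factors.

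The counts of 1 RefSeq row per gene summed to 19425789 and 25038613 in the ZNF503 shRNA libraries and to 24176528 and 42824868 in the WT libraries. Where no library of a group held more than 3 counts of a gene, the gene was taken to be at the detection limit in that group, which corresponds to a mean of 0.134 CPM in ZNF503 shRNA cells and 0.0996 CPM in WT cells (reads scaled to the library total and TMM factors), and this limit covers counting error only. Replicates differed beyond sampling noise (chi-square per gene 21.5 in ZNF503 shRNA and 25.8 in WT cells), and no label says that they came from separate cultures, so that p-values measure the spread between these libraries. Values are given as replicate 1 and replicate 2. A gene is said to have risen or fallen where its adjusted p was under 0.05 in the quasi-likelihood test of edgeR, and to have been called where it also passed 8-fold and 1% FDR. Fold changes are log2 values of ZNF503 shRNA minus WT, given ± their standard error.

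ZNF503 mRNA was strongly reduced in the knockdown libraries. It was read by 12 and 16 counts in ZNF503 shRNA cells and by 201 and 388 counts in WT cells, which gives 0.598 and 0.635 CPM against 8.62 and 9.13 CPM. The knockdown libraries thus lay below both WT libraries and held 6.95% ± 0.295 (SD, n = 2) of the WT mean, a log2 fold change of -3.84 ± 0.29, adjusted p = 6.25e-07. ZNF503 is encoded on the minus strand at chr10:77157588-77161522 (GRCh37). ZNF503-AS2, an antisense transcript of the locus, fell as well, from 1.76 and 1.74 CPM to 0.199 and 0.318 CPM (-2.71 ± 0.44); whether strand was used in counting is not given in the sources used here, so that reads of the gene and its antisense partner cannot be told apart. NKX2-5 shRNA cells, whose shRNA does not target ZNF503, held 0.578 and 0.879 CPM of it, and their difference from ZNF503 shRNA cells was -0.28 ± 0.34, adjusted p = 0.61. ZEB2 shRNA cells held 12.9 and 11.8 CPM. Among the other 10 tested members of the NET family and its TLE corepressors, none was called, while TLE1 rose from 7.84 and 10.4 CPM to 34.8 and 34.6 CPM (1.91 ± 0.17). ZNF703, the paralog of ZNF503, held 0.643 and 1.04 CPM in WT and 0.698 and 0.357 CPM in ZNF503 shRNA cells and did not pass the test (-0.73 ± 0.53, adjusted p = 0.255).

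Of 16443 genes tested, 643 (3.91%) were called, 478 lower (2.91%) and 165 higher (1%) in ZNF503 shRNA cells, so that called genes were more often lower than higher. At 5% FDR without a fold threshold 9165 genes passed (55.7%), of which 4693 fell (28.5%) and 4472 rose (27.2%), and the median log2 fold change of all genes was -0.03. The called lower genes had a median fitted fold of 22.6, with 176 past 32-fold, and the called higher genes one of 11.4, with 19 past 32-fold. The fitted fold depends on the prior count for the 131 called lower genes at the detection limit in ZNF503 shRNA cells and the 28 called higher genes at that limit in WT cells, and with these set to their bounds the medians were 15.3 and 10.1, with 114 and 6 genes past 32-fold. In 73 called lower genes the WT mean was at least 100 CPM, and in 29 called higher genes the ZNF503 shRNA mean was. The WT libraries were not alike. Of the 165 called higher genes, 135 were at a higher level in WT replicate 2 than in WT replicate 1, against 52.2% of all genes tested, and the number called higher was 93 without WT replicate 1 and 323 without WT replicate 2. Of the 478 called lower genes, 351 were at a lower level in WT replicate 2 than in WT replicate 1, and the number called lower was 439 and 460 in the same fits. In every called gene the libraries of the groups did not overlap, which the thresholds of a call nearly require and which adds no further evidence. Over all genes tested, the libraries did not overlap in 37.7% upward and 40.2% downward. In bulk libraries, fewer cells of a type and less RNA per cell cannot be told apart, which holds for every value given here.

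**Figure D1:**
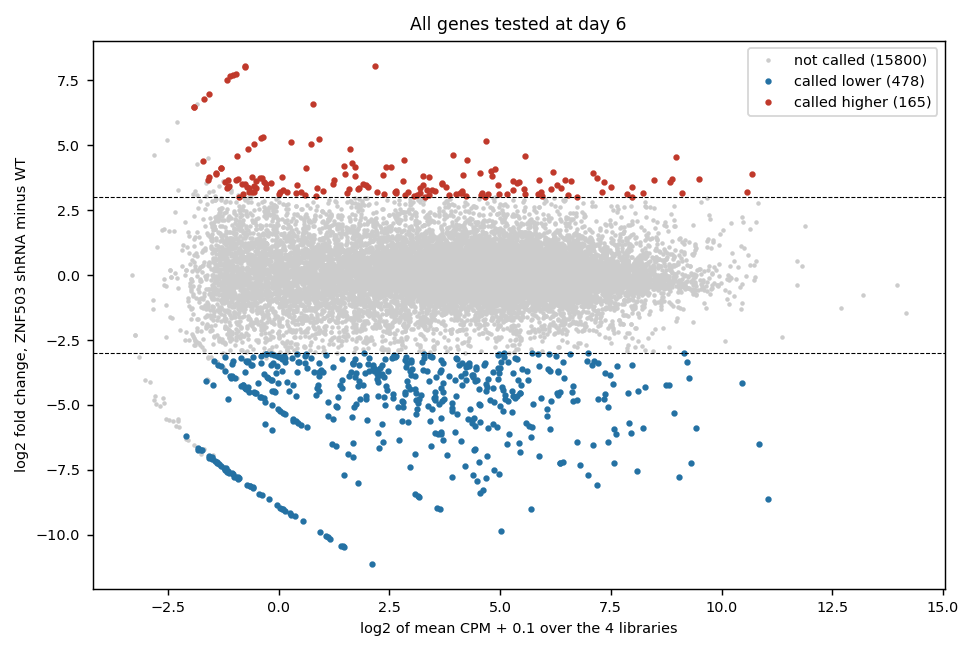
Each point is 1 of the 16443 genes tested at day 6, with its log2 mean CPM + 0.1 over the 4 libraries on the x axis and its log2 fold change (ZNF503 shRNA minus WT) on the y axis; dashed lines mark 8-fold. The 478 called lower genes (blue) reach further from 0 than the 165 called higher genes (red), and the straight lower edge holds genes with no count in ZNF503 shRNA cells, whose fitted fold change depends on the prior count.

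The label cardiac progenitor held for the markers in WT cells but not in ZNF503 shRNA cells. Of the 8 markers, NKX2-5, ISL1, TBX5, HAND2, MEF2C and TNNT2 were called lower, PDGFRA, a receptor of cardiac mesoderm, fell from 928 and 801 CPM to 612 and 689.8 CPM (-0.41 ± 0.11, adjusted p = 0.00855), and GATA4, a zinc finger factor shared by cardiac mesoderm and endoderm, rose from 118 and 126 CPM to 241 and 189.9 CPM (0.82 ± 0.12). PDGFRA no longer passed 5% FDR without WT replicate 1 (-0.31, adjusted p = 0.0654), with only the compared groups in the fit (-0.38, adjusted p = 0.0526) or with ZEB2 shRNA in place of WT. The libraries are therefore named here by the knockdown and the day.

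Most cardiac transcription factors fell. Of the 37 tested, 14 were called lower and 0 higher, 21 fell and 7 rose at 5% FDR, and their median log2 fold change was -1.81 against -0.03 over all genes. NKX2-5, the homeobox gene of heart progenitors, was at 83.2 and 49.3 CPM in WT and at 2.84 and 2.03 CPM in ZNF503 shRNA cells, which is a log2 fold change of -4.78 ± 0.28, adjusted p = 7.07e-08. ISL1, a LIM homeobox factor of the second heart field, held 185 and 144 CPM against 10.4 and 10.4 CPM (-3.98 ± 0.15), and both knockdown libraries were at nearly one level. TBX5, a T-box factor of the first heart field, held 14.3 and 18.4 CPM against 0.997 and 0.238 CPM (-4.80 ± 0.41). For none of these did a knockdown library reach a WT library. HAND2, a basic helix-loop-helix factor of the ventricle and outflow tract, was lower still relative to WT, with 113 and 92.2 CPM against 1.3 and 2.18 CPM (-5.85 ± 0.24). MEF2C, which binds the enhancers of muscle genes, held 1099 and 788 CPM against 18.4 and 29.1 CPM (-5.31 ± 0.23), and MYOCD, a coactivator of serum response factor, 542 and 395 CPM against 10.8 and 7.54 CPM (-5.69 ± 0.21). The deepest fall of the list was that of SMYD1, a histone methyltransferase of striated muscle, from 331 and 252 CPM to 1.4 and 0.794 CPM (-8.09 ± 0.28, adjusted p = 1.43e-09). ZEB1, a zinc finger factor of mesenchymal cells, was also called lower, at -3.77 on the log2 scale. HEY1, a target of Notch signaling, held 19.6 and 11.6 CPM against 0.349 and 1.67 CPM (-3.87 ± 0.59). The fold change of HEY1 was -3.21 without ZNF503 shRNA replicate 1 and -5.47 without replicate 2, and that of TBX5 -6.09 and -4.04 in the same fits. T-box genes did not move together. TBX2 fell from 50.2 and 51.7 CPM to 8.48 and 6.67 CPM (-2.76 ± 0.17), less than 8-fold, and TBX3 rose from 76.9 and 126 CPM to 382 and 389.8 CPM (1.93 ± 0.18).

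Genes of the sarcomere had the largest share of members called lower of the 31 lists examined, 29 of 43, with 0 called higher. At 5% FDR 36 fell and 1 rose, and the median log2 fold change was -4.97. Summed over the list, the level was 57940 and 46880 CPM in WT and 12750 and 12060 CPM in ZNF503 shRNA cells. MYH6, the myosin heavy chain of the atrium and early heart tube, held 4569 and 3862 CPM in WT and 13.6 and 7.94 CPM in ZNF503 shRNA cells, which is a log2 fold change of -8.63 ± 0.26, adjusted p = 4.73e-10 and the largest drop in CPM of any called gene. TNNT2, cardiac troponin T, held 1399 and 1122 CPM against 9.07 and 7.82 CPM (-7.22 ± 0.20). NEBL, a nebulin relative of the Z-disc, held 4037 and 3210 CPM against 44.5 and 35.3 CPM (-6.51 ± 0.17). The knockdown libraries thus held on average 0.255% of the WT level of MYH6, 0.67% of TNNT2 and 1.1% of NEBL. MYBPC3, myosin binding protein C, was at 219 and 203 CPM and 2.64 and 2.22 CPM (-6.44 ± 0.20), and SMPX, a small protein of striated muscle, at 118 and 88.1 CPM and 0.199 and 0.199 CPM (-8.99 ± 0.30). TRIM63, a ubiquitin ligase of muscle, was not read in ZNF503 shRNA cells and was at least 30.7-fold lower than in WT, where it held 4.37 and 3.88 CPM. Some contractile transcripts stayed abundant below the WT level. MYL7, the atrial regulatory light chain, went from 3066 and 2231 CPM to 167 and 128 CPM (-4.17 ± 0.19). TPM1 (tropomyosin, 4789 and 4086 CPM against 868 and 839.6 CPM), ACTC1 (cardiac actin, 2011 and 1659 CPM against 353 and 281 CPM) and TNNC1 (troponin C, 735 and 511 CPM against 83.6 and 80.8 CPM) fell by 2.38, 2.53 and 2.92 on the log2 scale, less than 8-fold. MYH6 and the actin genes have close paralogs, and reads mapped to 1 best hit can be split between them. MYH7, the paralog of MYH6, fell as well (-7.25 ± 0.23), whereas the actin gene ACTA1 was the 1 member of the list that rose (2.47 ± 0.23).

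**Figure D2:**
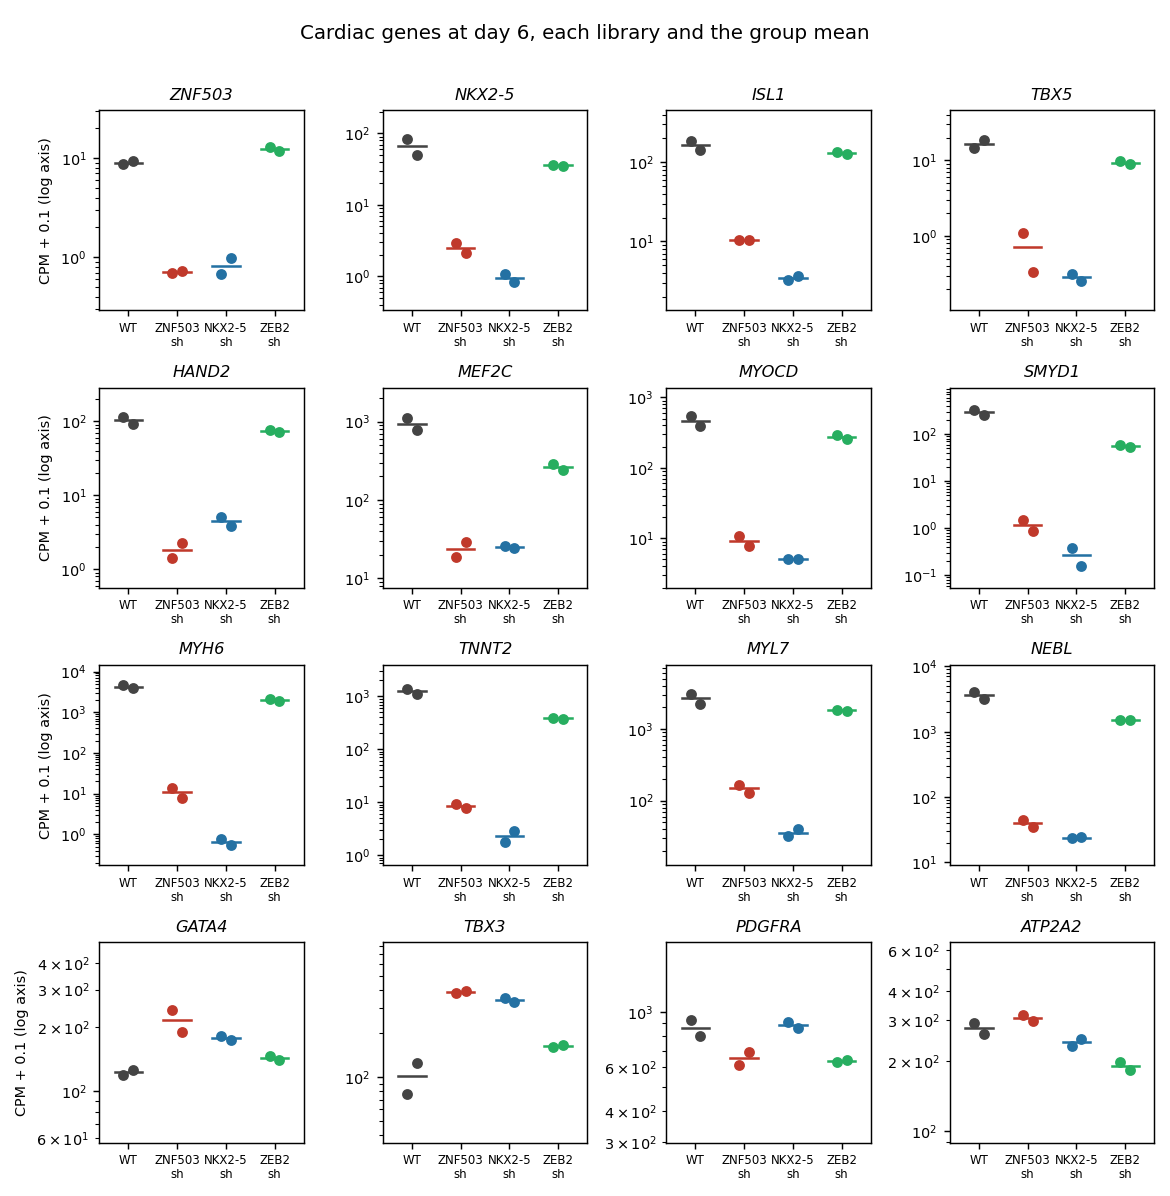
CPM + 0.1 at day 6 (log axis, scaled separately in each panel) of ZNF503, 7 cardiac regulators, 4 contractile genes and 4 genes with smaller changes in WT, ZNF503 shRNA, NKX2-5 shRNA and ZEB2 shRNA cells; points are the 2 libraries of a group and lines their mean. MYH6 stood at 4569 and 3862 CPM in WT and 13.6 and 7.94 CPM in ZNF503 shRNA cells, whereas GATA4 and TBX3 stood above both WT libraries.

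The promoters of a pair of the fallen contractile genes hold motifs of muscle promoters, and are shown with these letters in place; they were chosen after the values were seen. Shown are the 150 bases before the gene start from RefSeq (GRCh38.p14), 5′ to 3′ on the strand of the gene, for MYL7 (chr7:44141333-44141482, minus strand) and SMPX (chrX:21758117-21758266, minus strand). Capitals mark a CArG box, the site form of serum response factor, in MYL7, 61 bases before the start, and a MEF2 site in SMPX, 93 bases before it, each searched on both strands. Over the 27305 RefSeq promoter windows of 300 bases, a CArG box was found in 1.29% and a MEF2 site in 3.09%. A match describes the letters only and is not evidence of binding, and a role of these sites in the falls was not tested. The table held a promoter for 70.5% of the called lower and 75.8% of the called higher genes, below 80%, and no share over called genes is given.
MYL7: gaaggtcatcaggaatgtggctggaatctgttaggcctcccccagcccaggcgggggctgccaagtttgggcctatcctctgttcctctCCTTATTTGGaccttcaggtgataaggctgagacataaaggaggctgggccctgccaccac
SMPX: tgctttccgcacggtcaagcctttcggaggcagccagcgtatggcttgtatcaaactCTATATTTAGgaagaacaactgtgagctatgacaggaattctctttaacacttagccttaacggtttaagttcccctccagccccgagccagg

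Calcium handling and excitation genes mostly fell. Of 33 tested, 14 were called lower and 1 higher, 21 fell and 4 rose at 5% FDR, with a median log2 fold change of -2.40. PLN, phospholamban, the regulator of the calcium pump, held 115 and 117 CPM in WT against 0.997 and 0.874 CPM (-6.96 ± 0.24), and RYR2, the calcium release channel, 707 and 477 CPM against 11.5 and 8.66 CPM (-5.89 ± 0.23). CHRM2, the muscarinic receptor of the heart, held 53.7 and 38.7 CPM against 0.0997 and 0.159 CPM (-8.40 ± 0.37), and KCNJ5, a potassium channel of atrial cells, 40.6 and 27.4 CPM against 0.499 and 0.318 CPM (-6.39 ± 0.36). All of these were far below either WT library. The calcium pump itself, ATP2A2, which most cells use, held 292 and 263 CPM in WT and 316 and 298 CPM in ZNF503 shRNA cells and did not pass the test (0.15 ± 0.11, adjusted p = 0.267). KCND3, a potassium channel gene, went the other way, from 0.257 and 0.282 CPM to 6.73 and 3.53 CPM (4.21 ± 0.46). Of 12 natriuretic peptides and cardiac ligands, 5 were called lower, among them FGF10 and FGF8, growth factors of the second heart field (44.3 and 44 CPM against 1.84 and 1.03 CPM, and 30.1 and 19.3 CPM against 1.15 and 0.596 CPM), and BMPER, a secreted BMP modulator (388 and 282 CPM against 19.1 and 26.8 CPM). NPPB, the B-type natriuretic peptide, rose from 28.9 and 23.4 CPM to 114 and 83.9 CPM (1.92 ± 0.19), while NPPA, the atrial peptide, was at least 6.52-fold lower. Of 20 genes of muscle energy metabolism, 9 were called lower and 0 higher (median -2.50), with PPARGC1A, a coactivator of mitochondrial genes, at 218 and 169.5 CPM against 6.03 and 7.27 CPM and CKM, muscle creatine kinase, at 26.6 and 20.6 CPM against 0.548 and 0.159 CPM. PDK1, a kinase that restrains pyruvate oxidation, had one of the 10 largest drops in CPM among called genes, from 1523 and 1172 CPM to 24.6 and 20.8 CPM (-5.89 ± 0.17).

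Endoderm and secretory genes stood higher in ZNF503 shRNA cells. Of 31 hepatic and yolk sac secretory genes, 24 rose and 0 fell at 5% FDR, 5 were called higher, and the median log2 fold change was 1.85; over all genes, 27.2% rose. APOB, the structural protein of low density lipoprotein, held 187 and 415 CPM in WT and 2733 and 2795 CPM in ZNF503 shRNA cells, which is a log2 fold change of 3.20 ± 0.30, adjusted p = 3.11e-06. APOA1, the main protein of high density lipoprotein, held 66 and 154 CPM against 1037 and 940.2 CPM (3.16 ± 0.33), and TTR, transthyretin, 129 and 243 CPM against 1382 and 1521 CPM (2.96 ± 0.25), just under 8-fold. For each of these genes the WT libraries differed by around a factor of 2 from each other and were both below the knockdown libraries. The fibrinogen chains FGA and FGG were called higher (6.86 and 19.3 CPM against 104 and 115 CPM, and 1.07 and 2.42 CPM against 14.5 and 16.4 CPM), and AFP, alpha-fetoprotein, rose from 93.9 and 184 CPM to 484 and 451 CPM (1.75 ± 0.27). ALB, albumin of mature hepatocytes, was low in both groups, at 1.24 and 2.73 CPM and 1.79 and 4.37 CPM, and did not pass the test (0.60 ± 0.42, adjusted p = 0.243), although it did without WT replicate 2 (1.32, adjusted p = 0.0445) and had the opposite sign without ZNF503 shRNA replicate 2 (-0.21, adjusted p = 0.737). Without WT replicate 2 the log2 fold changes of APOB, APOA1, FGA and FGG were 3.88, 3.90, 3.99 and 3.84. Without WT replicate 1 those of APOB, FGA and FGG were 2.73, 2.50 and 2.66, less than 8-fold. The lowest value of APOA1 with 1 library left out was 2.68, also less than 8-fold. The summed level of the list was 1336 and 2425 CPM in WT, 10010 and 10070 CPM in ZNF503 shRNA, 14900 and 15030 CPM in NKX2-5 shRNA and 1681 and 2310 CPM in ZEB2 shRNA cells. The number of members called moved with the WT library used, from 1 without WT replicate 1 to 15 without WT replicate 2, and the number that rose at 5% FDR was 23 and 27 of 32 tested; the part of this difference between the WT libraries in the result was not tested.

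Of 24 endoderm transcription factors, 16 rose and 4 fell at 5% FDR, with 3 called higher and 2 called lower and a median log2 fold change of 1.00. HNF4A, the nuclear receptor that drives hepatic genes, held 36.2 and 83.9 CPM in WT and 562 and 509 CPM in ZNF503 shRNA cells, which is a log2 fold change of 3.15 ± 0.29, adjusted p = 2.89e-06. CDX2, a homeobox factor of hindgut and trophoblast, was also called higher, from 0.0857 and 0.235 CPM to 1.65 and 1.71 CPM. SOX17 (5.4 and 7.41 CPM against 56.1 and 44.7 CPM) and FOXA2 (8.92 and 23.1 CPM against 94.1 and 91.6 CPM), which specify definitive endoderm, rose by 2.96 and 2.51 on the log2 scale, less than 8-fold. Not all members rose. HHEX (-1.51 ± 0.17) and TCF21 (-2.87 ± 0.45) fell by less than 8-fold, and SOX7, LHX1, CXCR4 and CER1 did not pass the test. The 2 called lower were PROX1 and NKX2-1. PROX1, a homeobox factor that heart muscle, liver and lymphatic cells use, held 61.1 and 51.1 CPM against 7.88 and 5.8 CPM, and NKX2-1, of lung and thyroid, was at least 5.72-fold lower, from 1.11 and 0.424 CPM. Without WT replicate 1, HNF4A was at 2.67, CDX2 at 2.81 and FOXA2 at 2.00 on the log2 scale, each less than 8-fold. Without WT replicate 2, HNF4A was at 3.88, CDX2 at 4.22 and FOXA2 at 3.37, so that the calls of HNF4A and CDX2 depended on the WT library used.

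A RefSeq promoter window of HNF4A, a regulator among the called higher genes, is shown in the same way as those above (150 bases before the start, GRCh38.p14, chr20:44355549-44355698, plus strand). Which start of HNF4A these cells used was not tested. Capitals mark the letters AGATAA, which factors such as GATA4 recognize, 26 bases before the start. Of all RefSeq promoter windows, 10.5% hold AGATAA on either strand, and a match describes these letters only and is not evidence of binding.
HNF4A: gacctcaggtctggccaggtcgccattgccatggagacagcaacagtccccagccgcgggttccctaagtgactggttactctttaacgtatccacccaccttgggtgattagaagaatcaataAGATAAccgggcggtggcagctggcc

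**Figure D3:**
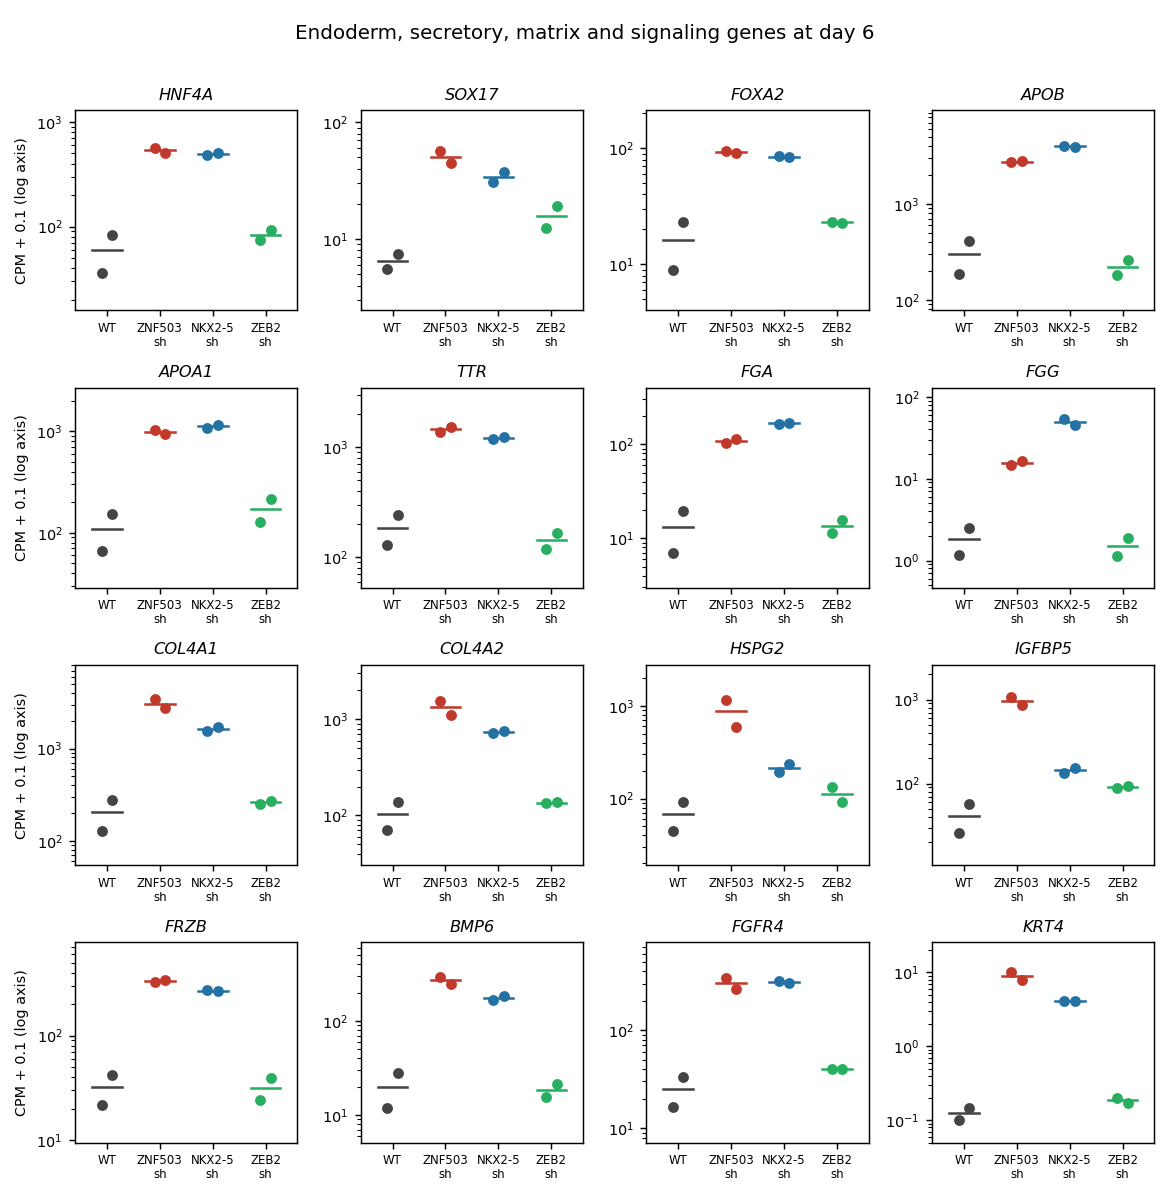
CPM + 0.1 at day 6 (log axis, scaled separately in each panel) of 16 genes that were higher in ZNF503 shRNA than in WT cells, in the 4 groups of day 6; points are the 2 libraries of a group and lines their mean. WT replicate 2 (the right-hand WT point) stood above WT replicate 1 in each panel and below both ZNF503 shRNA libraries, and HSPG2 and IGFBP5 stood higher in ZNF503 shRNA than in NKX2-5 shRNA cells.

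Collagen IV chains rose, while most genes of the mesenchymal matrix fell. COL4A1 and COL4A2, the paired chains of type IV collagen, held 128 and 280.2 CPM and 70.8 and 137 CPM in WT against 3405 and 2728 CPM and 1569 and 1100 CPM in ZNF503 shRNA cells, with log2 fold changes of 3.91 ± 0.29 and 3.68 ± 0.26. HSPG2, perlecan of the basement membrane, held 44.8 and 90.7 CPM against 1170 and 589 CPM (3.69 ± 0.36), and its knockdown replicates differed by nearly a factor of 2. IGFBP5, an IGF binding protein, held 25.6 and 56.7 CPM against 1069 and 862 CPM (4.54 ± 0.29). COL4A1, COL4A2, HSPG2 and IGFBP5 were among the 10 called genes with the largest gain in CPM. Without WT replicate 2 the fold changes of COL4A1, HSPG2 and IGFBP5 were 4.58, 4.29 and 5.23. That of COL4A1 was 3.445 without WT replicate 1, and the lowest of HSPG2 and IGFBP5 with 1 library left out were 3.11 and 4.08. Of 33 mesenchymal and matrix genes fixed as a list, 10 were called lower and 2 higher (COL4A1 and COL12A1), and 21 fell and 7 rose at 5% FDR, with a median log2 fold change of -1.98. NID2, nidogen, also a basement membrane protein, fell from 369 and 307 CPM to 12.6 and 7.43 CPM (-5.09 ± 0.22), against the direction of the collagen IV chains. HAPLN1, which links hyaluronan in cardiac jelly, fell from 1094 and 1072 CPM to 89.9 and 123 CPM (-3.35 ± 0.15), and VIM, vimentin, from 1614 and 1553 CPM to 797 and 659 CPM (-1.12 ± 0.12), less than 8-fold. Of 28 epithelial keratins and junction genes, 18 rose and 2 fell at 5% FDR (median 1.10), and only KRT4, a keratin of stratified epithelium, was called: it held 0 and 0.0471 CPM in WT and 9.97 and 7.74 CPM in ZNF503 shRNA cells, at least 88.9-fold higher. KRT19, a keratin of simple epithelium, rose from 448 and 542 CPM to 1549 and 1444 CPM (1.59 ± 0.13).

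Among signaling genes some were called lower and some higher. Of 42 WNT pathway genes, 5 were called lower and 1 higher, 14 fell and 14 rose at 5% FDR, and the median was -0.05; over all genes, 3.91% were called, 28.5% fell and 27.2% rose, so that the shares of WNT genes at 5% FDR lay near those of all genes. The noncanonical ligand WNT5A fell from 159 and 116 CPM to 4.59 and 5 CPM (-4.84 ± 0.20), and WNT2, a ligand of early heart mesoderm, was not read in ZNF503 shRNA cells, at least 39-fold below WT (6.82 and 3.67 CPM). LEF1, a nuclear effector of WNT, fell from 55 and 53.9 CPM to 2.04 and 3.22 CPM (-4.35 ± 0.23), and RSPO2, which amplifies WNT signals, from 21.3 and 22.2 CPM to 1.1 and 0.556 CPM (-4.75 ± 0.28). FRZB, a secreted WNT antagonist, was the gene called higher, from 21.6 and 41.9 CPM to 326 and 340.0 CPM (3.38 ± 0.27). In the BMP pathway 2 of 31 genes were called higher and 1 lower, and 14 rose and 11 fell at 5% FDR: the ligand BMP6 rose from 11.9 and 27.9 CPM to 291 and 249.8 CPM (3.74 ± 0.30), BMP3, a ligand that opposes BMP signaling, from 0.343 and 0.0941 CPM to 6.18 and 5.2 CPM (4.87 ± 0.58), and BMPER fell. The fold change of BMP3 was 5.86 without WT replicate 1 and 4.03 without WT replicate 2. Without WT replicate 2 those of BMP6, FGFR4 and NODAL were 4.50, 4.18 and 3.49. That of BMP6 was 3.27 without WT replicate 1, and the lowest of FGFR4 and NODAL with 1 library left out were 3.17 and 2.51. In the FGF pathway 5 of 25 genes were called lower and 1 higher: beside FGF8 and FGF10, DUSP6, a phosphatase induced by FGF signals, fell from 623 and 431 CPM to 24.5 and 22.7 CPM (-4.48 ± 0.20), and the receptor FGFR4 rose from 16.5 and 33.3 CPM to 338 and 264 CPM (3.58 ± 0.25). JAG1, a Notch ligand, fell from 379 and 246 CPM to 14.8 and 8.5 CPM (-4.76 ± 0.27) and was, with HEY1, 1 of 2 called among 18 Notch pathway genes, of which 6 rose and 5 fell at 5% FDR. Of 26 NODAL and TGFB pathway genes, TGFB3 alone was called, lower, from 6.94 and 10.1 CPM to 0.698 and 0.397 CPM, while NODAL itself rose from 2.14 and 4.24 CPM to 28.5 and 20.1 CPM (2.87 ± 0.28), just under 8-fold. CYP26A1, which degrades retinoic acid, was the 1 gene called among 16 of that pathway, from 1.84 and 2.12 CPM to 23.2 and 23.7 CPM (3.55 ± 0.25).

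Few genes of earlier stages were called, where 3.91% of all genes were. At 5% FDR, 27.2% of all genes rose and 28.5% fell. None of 19 pluripotency genes was called, 5 rose and 4 fell at 5% FDR, and POU5F1 (OCT4) held 3.56 and 3.67 CPM in WT and 7.03 and 7.19 CPM in ZNF503 shRNA cells (0.97 ± 0.24, adjusted p = 0.00447), which did not pass the test with ZEB2 shRNA in place of WT (0.24, adjusted p = 0.422). Of 19 genes of early and cardiac mesoderm, HAS2, hyaluronan synthase, was called lower (676 and 506 CPM against 27.8 and 31.9 CPM, -4.30 ± 0.17) and CDX2 higher. At 5% FDR 8 of these 19 fell and 1 rose. No gene of the cell cycle list was called, but 19 of 27 fell and 4 rose at 5% FDR, with a median log2 fold change of -1.10; TOP2A, topoisomerase of dividing cells, held 659 and 657 CPM against 142 and 177 CPM (-2.04 ± 0.12). Of 21 p53 targets and apoptosis genes, 13 rose and 3 fell, with none called (median 0.71), and CDKN1A, the cell cycle inhibitor p21, went from 2.31 and 1.98 CPM to 11.7 and 9.25 CPM (2.30 ± 0.33). Of 18 imprinted genes, the neighbours H19 and IGF2 were called lower, from 273 and 453 CPM to 34.7 and 30.3 CPM and from 131 and 166 CPM to 13.6 and 8.89 CPM. Of 18 interferon-stimulated genes, IFIT1 was called lower, from 53.2 and 49 CPM to 0.199 and 0.238 CPM (-7.83 ± 0.32), and MX1 higher, from 0.0857 and 0.118 CPM to 1.2 and 1.39 CPM. Of 9 HOX genes tested, 5 were called lower and 2 higher; HOXB3 held 4.42 and 7.88 CPM in WT and was at least 45.8-fold lower, and the median of the list was -3.82, or -1.45 with the bound used for the 5 genes at that limit and -0.44 on the log2(CPM + 1) scale. Of 22 genes of glycolysis and glucose transport, ENO3, muscle enolase, and PDK1 were called lower, and SLC2A3, a glucose transporter, rose from 1490 and 1727 CPM to 5765 and 6023 CPM (1.87 ± 0.11); of 23 lipid metabolism genes PPARGC1A alone was called, and 14 rose and 5 fell at 5% FDR.

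Markers of other cell types that the culture can hold gave no single direction across the lists. More members fell than rose at 5% FDR in the smooth muscle, blood, and amnion and trophoblast lists. Of 14 smooth muscle genes 8 fell and 4 rose, and of 20 neural genes 6 fell and 8 rose. Over all genes, 27.2% rose and 28.5% fell at 5% FDR, and 1% were called higher and 2.91% lower. The endothelial shares at 5% FDR lay near those of all genes. Of 23 endothelial genes, 5 rose and 5 fell at 5% FDR; KDR, the VEGF receptor shared with cardiac mesoderm, fell from 402 and 455 CPM to 92.6 and 118 CPM (-2.03 ± 0.13), while PECAM1 (3.94 and 5.53 CPM against 2.84 and 4.73 CPM) and CDH5 (10.5 and 16.1 CPM against 8.87 and 13.1 CPM) did not pass the test. Of 14 smooth muscle genes, 3 were called lower; ACTA2, smooth muscle actin and also a transcript of early heart muscle, fell from 545 and 361 CPM to 22.5 and 16.2 CPM (-4.55 ± 0.22), and TAGLN rose from 446 and 337 CPM to 747 and 586 CPM (0.77 ± 0.18), a rise that was lost without ZNF503 shRNA replicate 1 (adjusted p = 0.056). Of 16 blood genes, 2 were called lower, 8 fell and 2 rose at 5% FDR, and GATA1, HBZ and PF4 were too low to be tested. Of 13 epicardial genes, LRRN4 and LHX2 were called lower, 5 rose and 5 fell at 5% FDR, and the summed level was 826 and 998 CPM in WT and 3151 and 2793 CPM in ZNF503 shRNA cells. Most of that sum was held by KRT19 and by PODXL, podocalyxin, which rose from 279 and 355 CPM to 1525 and 1268 CPM (2.14 ± 0.14) and was chosen after its values were seen, with WT1 (0.0857 and 0.471 CPM against 0.0997 and 0.159 CPM) and TBX18 (0.6 and 0.424 CPM against 0.0997 and 0.318 CPM) low in both groups. Of 20 neural genes 2 were called higher and 3 lower; TUBB3, a tubulin of neurons that other cells also hold, rose from 16.2 and 23.2 CPM to 186 and 146 CPM (3.07 ± 0.20), and PAX6, SOX1 and FEZF2 were too low to be tested. Of 16 genes of amnion and trophoblast, ISL1 alone was called, 7 fell and 2 rose, with GABRP at 73.4 and 76 CPM against 12.2 and 15.6 CPM.

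**Figure D4:**
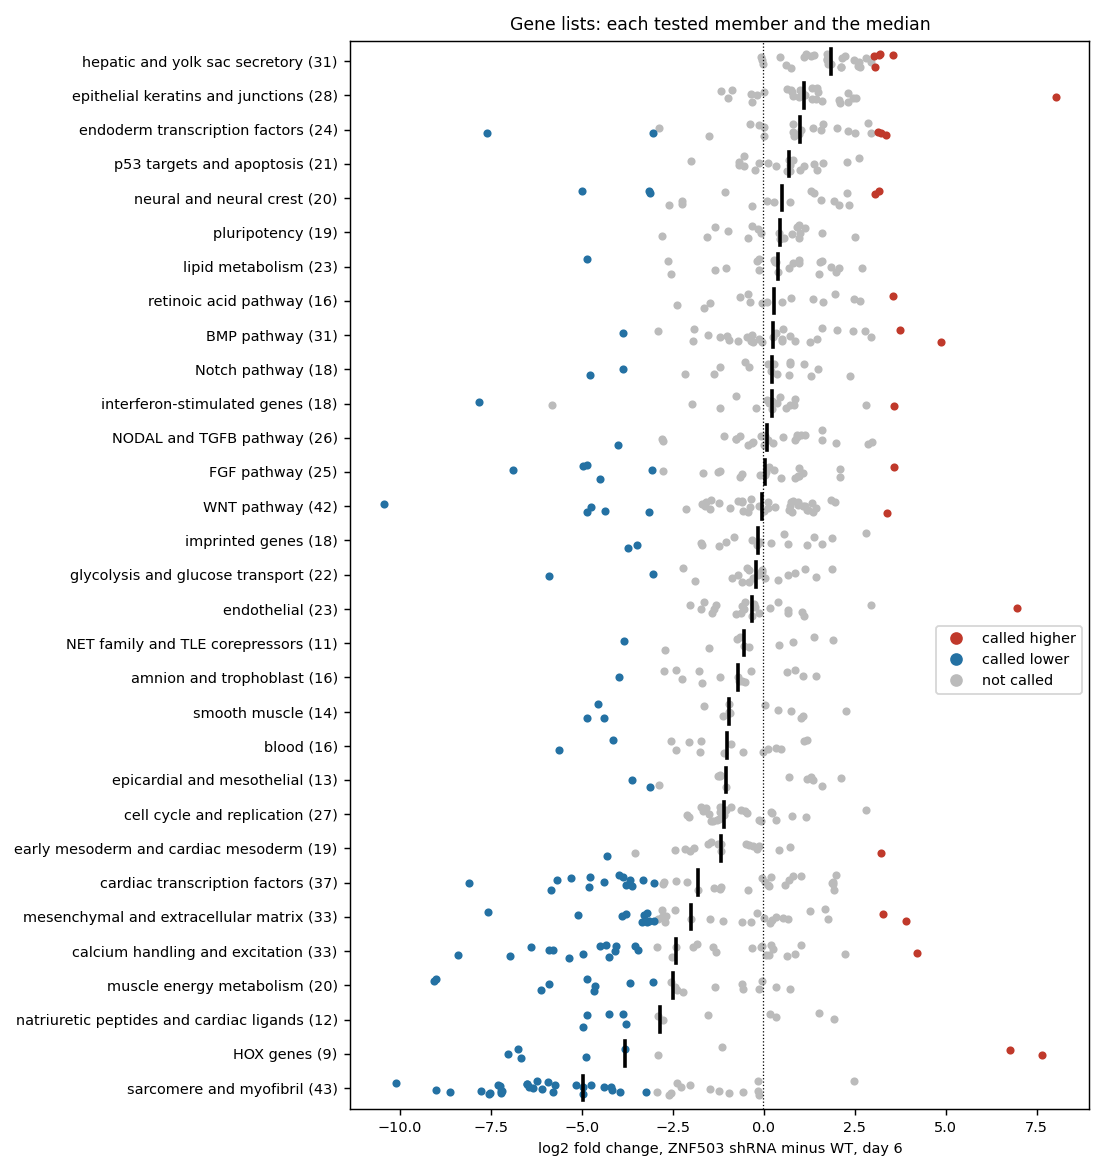
Log2 fold change at day 6 (x axis, ZNF503 shRNA minus WT) of each tested member of the 31 gene lists, ordered by their median (black bar; number tested in parentheses), with genes called higher in red and called lower in blue; the dotted line is the median of all genes, -0.03. The hepatic and yolk sac list had the highest median, 1.85, and the sarcomere list the lowest, -4.97.

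Ranked by fitted fold among called genes with a mean of at least 1 CPM in the higher group, the deepest falls were those of C1QL1, DNAJC5G, WNT2, TULP1, PPFIA2, TRIM63, DHRS9, HAND2-AS1, BRINP2 and G0S2. All 10 were at the limit of detection in ZNF503 shRNA cells, so that only bounds can be given, from at least 20.4-fold for G0S2, an inhibitor of lipolysis, to at least 484-fold for BRINP2, which held 73.1 and 56.8 CPM in WT and 0.0499 and 0.0794 CPM in ZNF503 shRNA cells. C1QL1, a secreted complement-like protein, held 10.2 and 6.59 CPM in WT. The largest rises were those of KRT4, APLN, SLC22A6, CALHM4, ISM2, COL4A3, TMC3, OR5P2, KRT79 and BMP3. COL4A3, a further collagen IV chain, held 1.03 and 1.62 CPM in WT and 58.4 and 41.8 CPM in ZNF503 shRNA cells (5.18 ± 0.24, adjusted p = 1.14e-08), and APLN, the ligand of the apelin receptor, was at least 32.4-fold higher, at 3.79 and 2.66 CPM. SLC22A6, CALHM4, ISM2, TMC3, OR5P2 and KRT79 reached at most 3.79 CPM in a ZNF503 shRNA library. HAND2-AS1 lies antisense at the HAND2 locus, with the limit on strand given for ZNF503-AS2. Beside the genes named above, MYL4, TNNI1 and PDLIM5 had some of the 10 largest drops in CPM among called genes, and SLC7A5, CDH6 and S100A16 some of the 10 largest gains; SLC7A5, an amino acid transporter, went from 54.4 and 87.9 CPM to 986 and 708 CPM, and CDH6, a cadherin, from 25.2 and 78.8 CPM to 671 and 653 CPM. CPM is not scaled by transcript length, and these ranks compare differences and not levels per length.

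ZNF503 shRNA and NKX2-5 shRNA cells of day 6 were compared directly, which asks where the transcriptomes of these knockdown lines differed. This comparison and that with WT share the ZNF503 shRNA libraries. ZNF503 mRNA was low in both groups and did not differ between them at 5% FDR, as given above. The genes called here thus cannot be assigned to the loss of ZNF503 or of NKX2-5. Of 16443 genes, 65 were called (0.395%), 26 higher (0.158%) and 39 lower (0.237%) in ZNF503 shRNA cells, and 2422 (14.7%) passed 5% FDR. Sarcomere genes were higher in ZNF503 shRNA cells: 24 of 43 were higher and 0 lower at 5% FDR, against 8.81% and 5.92% of all genes, with 4 called and a median log2 difference of 1.23. MYH6 was nearly absent in NKX2-5 shRNA cells, at 0.65 and 0.449 CPM, where ZNF503 shRNA cells held 13.6 and 7.94 CPM, a log2 difference of 4.33 ± 0.30, adjusted p = 7.6e-06, and MYBPC3 was at 0.108 and 0.195 CPM against 2.64 and 2.22 CPM (3.85 ± 0.35). Both levels were far below the WT libraries. Of 37 cardiac transcription factors 14 were higher and 4 lower at 5% FDR, with none called; NKX2-5 itself, the target of the other shRNA, held 0.975 and 0.742 CPM there and 2.84 and 2.03 CPM in ZNF503 shRNA cells (1.52 ± 0.34, adjusted p = 0.0124), a difference that was lost without ZNF503 shRNA replicate 1 (1.28, adjusted p = 0.142), without NKX2-5 shRNA replicate 2 (adjusted p = 0.0954) and in 1 fit of all libraries (1.52, adjusted p = 0.0878). The largest differences upward belonged to PEG3 and COL2A1, with SLITRK3, a neuronal membrane protein, next to MYH6 and MYBPC3. PEG3, an imprinted zinc finger gene, held 11.6 and 9.53 CPM in ZNF503 shRNA cells. In NKX2-5 shRNA cells PEG3 was near the detection limit, at 0.108 and 0.117 CPM (6.49, or 5.93 with a prior count of 2). COL2A1, a fibrillar collagen, held 85.9 and 59.9 CPM against 1.95 and 2.74 CPM (4.92 ± 0.27). IGFBP5 (2.74 ± 0.27), COL12A1 (2.72 ± 0.23), HSPG2 (2.03 ± 0.33) and BMP3 (3.24 ± 0.49), all of them higher than WT in ZNF503 shRNA cells, were also higher there than in NKX2-5 shRNA cells, which held 134 and 154 CPM of IGFBP5 and 0.433 and 0.723 CPM of BMP3; these 4 genes were chosen here after their values were seen. In the other direction DDX43 and BHMT2 were not read in ZNF503 shRNA cells and held 2.93 and 3.09 CPM and 0.903 and 1.35 CPM in NKX2-5 shRNA cells. RBM46, an RNA binding protein of germ cells, held 0.199 and 0.476 CPM against 50.4 and 50.9 CPM (-7.16 ± 0.38, or -7.97 without ZNF503 shRNA replicate 2), and the remaining 2 of the largest were LRRC61 and MIR4458HG. HOX genes were also lower in ZNF503 shRNA cells, 5 of 9 at 5% FDR, with HOXB3 at 0.0997 and 0 CPM, the detection limit, against 2.64 and 1.99 CPM. Of 31 hepatic and yolk sac genes 8 were lower and 2 higher at 5% FDR; APOA2, an apolipoprotein, held 278 and 315 CPM against 1083 and 1061 CPM, and HNF4A held 562 and 509 CPM against 479 and 508 CPM and did not pass the test (0.12 ± 0.26, adjusted p = 0.802). Genes of the cell cycle were higher in ZNF503 shRNA cells, 18 of 27 at 5% FDR and none lower. Without ZNF503 shRNA replicate 1, 29 genes were called (14 higher and 15 lower), and the number called lower was 25 without ZNF503 shRNA replicate 2 and 23 without NKX2-5 shRNA replicate 2.

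With ZEB2 shRNA cells of day 6 in place of WT, a comparator chosen after the data were seen, 572 genes (3.48%) were called, 451 lower (2.74%) and 121 higher (0.736%), and 49.2% of all genes passed 5% FDR. The ZEB2 shRNA cells carry an shRNA from the same kind of vector and hold ZNF503 at 12.9 and 11.8 CPM. They are themselves cells with a knockdown and differ from WT. Their summed sarcomere level was 24900 and 23850 CPM, against 57940 and 46880 CPM in WT. Counts against them therefore do not stand for counts against an unperturbed control, and an effect of the vector was not tested. Against them, 23 of 43 sarcomere genes were called lower and 1 higher, and 12 of 37 cardiac transcription factors were called lower. Of 31 hepatic and yolk sac genes, 5 were called higher and 25 rose at 5% FDR, against 23.7% of all genes, and APOB differed by 3.64 ± 0.30 with 181 and 264 CPM in ZEB2 shRNA cells. The direction turned for NODAL, which ZEB2 shRNA cells held at 115 and 125 CPM, above the ZNF503 shRNA libraries (-2.31 ± 0.25, adjusted p = 1.38e-05), and PDGFRA no longer differed at 5% FDR (0.04 ± 0.11, adjusted p = 0.812). None of the endoderm transcription factors was called higher against ZEB2 shRNA cells and 2 were called lower, and 13 of 24 rose and 8 fell at 5% FDR, against 16 and 4 relative to WT.

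Whether the difference between ZNF503 shRNA and WT cells changed between days 2 and 6 was tested by the difference of the log2 fold changes against WT, in 1 fit of 16 libraries in which CPM values are scaled anew. Of 17358 genes, 662 were called (3.81%), 271 with a higher (1.56%) and 391 with a lower (2.25%) fold change at day 6, and 48.2% passed 5% FDR. ZNF503 itself was low at day 2 in both groups and the libraries overlapped, at 1.12 and 2.03 CPM in WT and 0.987 and 1.8 CPM in ZNF503 shRNA cells, so that no reduction of ZNF503 was seen in the shRNA cells of day 2; the difference between the days was -3.61 ± 0.49, adjusted p = 1.65e-05. Several genes changed sides, and those described here were chosen after their values were seen. SOX17 was at 54.8 and 60.04 CPM in WT and 3.24 and 4.29 CPM in ZNF503 shRNA cells at day 2, and at 5.6 and 7.63 CPM and 58.7 and 46.4 CPM at day 6, a difference of 6.95 ± 0.33, adjusted p = 1.57e-10. Thus SOX17 was lower than WT in ZNF503 shRNA cells at day 2 and higher at day 6, with no overlap on either day. CYP26A1 went the same way, from 632 and 680.4 CPM in WT against 73.5 and 103 CPM at day 2 to 1.91 and 2.18 CPM against 24.2 and 24.6 CPM at day 6 (6.46 ± 0.27). TBX3 (18.9 and 18.4 CPM against 1.69 and 2.26 CPM at day 2, 5.27 ± 0.28) and GATA4 (20.8 and 23.9 CPM against 5.37 and 7.01 CPM at day 2, 2.72 ± 0.19) were also below WT at day 2 and above it at day 6. The opposite course was seen in a few cardiac genes. NEBL was at 24.3 and 22 CPM in WT and 132 and 116 CPM in ZNF503 shRNA cells at day 2, above WT, and at 4184 and 3305 CPM against 46.5 and 36.6 CPM at day 6 (-8.92 ± 0.21, adjusted p = 2.36e-14). RYR2 (74.5 and 71.5 CPM against 185 and 164 CPM at day 2, -7.13 ± 0.26), TBX5 (0.197 and 0.381 CPM against 2.73 and 1.38 CPM, -7.82 ± 0.66) and LEF1 (9.08 and 10.8 CPM against 19.8 and 22.5 CPM, -5.44 ± 0.30) shared it. BMP3 and NODAL were at like levels in both groups at day 2 (6.51 and 6.98 CPM against 6.56 and 5.81 CPM, and 148 and 149.6 CPM against 148 and 180.4 CPM) and were lower in WT than in ZNF503 shRNA cells at day 6 (5.02 ± 0.54 and 2.72 ± 0.30). The difference of BMP3 was 5.97 without WT day 6 replicate 1 and 4.16 without WT day 6 replicate 2. In the same fits that of NODAL was 2.37 and 3.37. That of TBX5 was -9.12 without ZNF503 shRNA day 6 replicate 1 and -7.07 without replicate 2. APLN likewise went from 5.66 and 7.74 CPM at day 2 to 0 and 0.0485 CPM at day 6 in WT, and from 1.59 and 1.89 CPM to 3.96 and 2.76 CPM in ZNF503 shRNA cells, with WT at the detection limit at day 6. The mesendoderm genes TBXT and MIXL1 were low by day 6 in both groups: TBXT was at 52.5 and 54.8 CPM and 29.9 and 40.4 CPM at day 2, and at 0.311 and 0.436 CPM and 0.208 and 0.412 CPM at day 6. EOMES, a T-box factor of mesendoderm, was at 11.2 and 11.2 CPM in WT and 17.7 and 13 CPM in ZNF503 shRNA cells at day 6, after 575 and 627 CPM and 268 and 354 CPM at day 2.

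**Figure D5:**
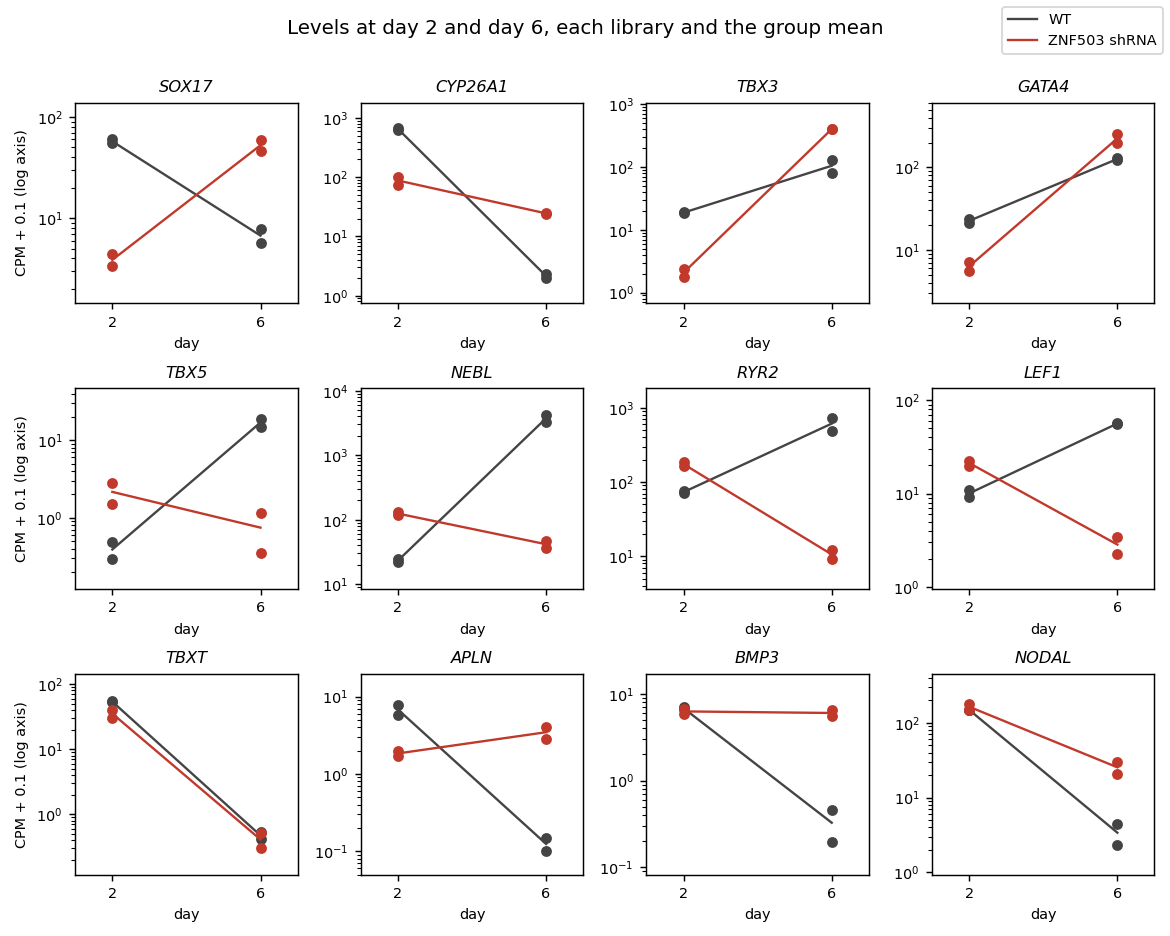
CPM + 0.1 (log axis, scaled separately in each panel) at days 2 and 6 of 12 genes in WT (grey) and ZNF503 shRNA cells (red); points are libraries and lines join the group means. The lines cross for SOX17, CYP26A1, TBX3, GATA4 and APLN, which were below WT at day 2 and above it at day 6, and for TBX5, NEBL, RYR2 and LEF1, which took the opposite course.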

How the data were processed

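Total RNA of H1 cells was sequenced with a stranded kit, and per the labels the authors mapped reads to hg19 (GRCh37) with TopHat2 2.0.14 and Bowtie2 2.2.1.0, handled alignments with SAMtools 0.1.19.0 and deposited raw read counts per RefSeq gene, without normalization. Use of strand in counting is not given in the sources used here. Of 34 libraries, 4 columns of day 10 (2 each for the ZEB2 shRNA and WT groups) were not used here. Of 41627 accessions, 40285 (96.8%, with 97.1% of counts) matched a gene symbol, and each of 23189 symbols was read from its row with the largest total.

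Counts of the 8 libraries of day 6, 2 in each of 4 groups, were fitted together with the quasi-likelihood test of edgeR 4.0.16 in R 4.3.3 (filterByExpr, TMM factors, prior count 0.125, Benjamini-Hochberg adjustment over all genes tested); days 2 and 6 were fitted together over 16 libraries. The procedure was tested on simulated data. Called genes passed 8-fold and 1% FDR. The members and gene lists were chosen with earlier results of these data known. Named genes were, per list, up to 5 called members with the largest fold in each direction and up to 4 others in list order, besides cell type markers and, among called genes, the 10 largest by fold and by CPM difference in each direction, and the 5 largest in each direction of the further comparisons. Alternatives were DESeq2 1.42.0, the edgeR exact test, other scalings, filters, prior counts, thresholds and rows, a replicate block, thinned counts and each library left out. Results for some genes that the rule names are not reported here. Replicate numbers did not pair the samples.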

Additional observations from a re-analysis of the deposited data

Results flagged for a closer look

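The difference between ZNF503 shRNA and WT cells changed between day 2 and day 6 by the interaction term in 9 genes among the largest by rule, 5 with a lower and 4 with a higher fold change at day 6. Each fitted difference rests on at least 1 group at or near the limit of detection, depends on the prior count and is no bound. KRT4 was at 0.0987 and 0 CPM in WT and 0 and 0 CPM in ZNF503 shRNA cells at day 2, and 0 and 0.0485 CPM and 10.4 and 8.03 CPM at day 6 (difference 12.33 ± 2.12). GPR55, a G protein-coupled receptor, was at 0.395 and 0.381 CPM in WT and 0 and 0 CPM in ZNF503 shRNA cells at day 2, and 0.711 and 2.37 CPM and 17.8 and 16.5 CPM at day 6 (10.19 ± 1.34). SCEL, sciellin of the cornified envelope, was at 0.0658 and 0.127 CPM in WT and 0.0333 and 0 CPM in ZNF503 shRNA cells at day 2, and 0 and 0 CPM and 0.521 and 1.52 CPM at day 6 (9.86 ± 2.41), and KCND3 at 0.0658 and 0.127 CPM in WT and 0 and 0 CPM in ZNF503 shRNA cells at day 2, and 0.267 and 0.291 CPM and 7.03 and 3.67 CPM at day 6 (8.93 ± 1.85). ADRA1D, an adrenergic receptor, was at 0 and 0 CPM in WT and 0.266 and 0.461 CPM in ZNF503 shRNA cells at day 2, and 1.6 and 0.63 CPM and 0 and 0 CPM at day 6 (-14.84 ± 2.42), and NELL1, a secreted protein, at 0.0658 and 0 CPM in WT and 1.15 and 0.738 CPM in ZNF503 shRNA cells at day 2, and 1.6 and 0.63 CPM and 0 and 0 CPM at day 6 (-12.68 ± 1.78). PPFIA2 was at 0 and 0 CPM in WT and 0.0666 and 0 CPM in ZNF503 shRNA cells at day 2, and 4.98 and 3.9 CPM and 0 and 0 CPM at day 6 (-14.28 ± 2.69), PPP1R3A, a glycogen-targeting phosphatase subunit of muscle, at 0 and 0 CPM in WT and 0.0666 and 0 CPM in ZNF503 shRNA cells at day 2, and 27.7 and 23.1 CPM and 0.104 and 0 CPM at day 6 (-13.00 ± 2.39), and COX6A2, the muscle subunit of cytochrome oxidase, at 0 and 0 CPM in WT and 0.0444 and 0 CPM in ZNF503 shRNA cells at day 2, and 2.09 and 2.08 CPM and 0 and 0 CPM at day 6 (-12.66 ± 2.91). The last 3 of these passed the test only with ZNF503 shRNA day 2 replicate 1, and KRT4 only with WT day 2 replicate 1 (adjusted p = 1 without the library): these libraries hold the few counts of the genes at day 2.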

How the results depend on the processing

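Without a fold threshold at 5% FDR, the 643 genes called against WT became 9165 (4472 higher, 4693 lower), and at 2-fold and 5% FDR 4307 (2139 and 2168). Leaving out 1 library gave 532 to 783 genes, 93 to 323 higher and 435 to 460 lower; the extremes of the higher genes came without WT replicate 1 and without WT replicate 2. DESeq2 called 624, and the other settings between 554 and 688. Against NKX2-5 shRNA the 65 genes became 2422 (1449 higher, 973 lower) at 5% FDR and 907 (559 and 348) at 2-fold; the higher genes numbered 44 with the exact test, 41 with no filter and 16 with a prior count of 2, and leaving out 1 library gave 29 to 51 genes, 14 to 28 higher and 15 to 28 lower. For day 6 minus day 2 the 662 genes became 8364 (4028 higher, 4336 lower) at 5% FDR and 4642 (2491 and 2151) at 2-fold, and leaving out 1 library gave 570 to 809, 220 to 404 higher and 300 to 415 lower. The cause of these shifts between libraries was not tested.

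Of 92 genes followed against WT, 6 changed direction or side of the threshold in some setting (PDGFRA, ATP2A2, ALB, NODAL, POU5F1 and TAGLN); ATP2A2 passed the test with ZEB2 shRNA in place of WT (0.68, adjusted p = 0.000267). The direction turned for PDGFRA (0.0358) and NODAL (-2.31) with ZEB2 shRNA in place of WT, and for ALB (-0.21) without ZNF503 shRNA replicate 2, against 1.32 without WT replicate 2. Same-numbered libraries of the 2 groups did not deviate together (correlation -0.04 over 14600 genes), so the numbers were not taken as pairs, and with a replicate block 631 genes were called against WT, 56 against NKX2-5 shRNA and 655 between days. With 2 libraries a group from 1 shRNA line, an effect of the line or the vector cannot be told apart from that of ZNF503, and genes at the limit of detection have bounds only.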
